A study of Homo sapiens with 30 samples.

Results

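The nuclear-encoded subunits of the oxidative phosphorylation system were followed in prostate cancer cells treated with the antiandrogen enzalutamide, the androgen dihydrotestosterone (DHT) or the BET bromodomain inhibitor JQ-1. Members were taken by symbol alone: names beginning with NDUFA, NDUFB, NDUFC, NDUFS or NDUFV and a number, the 4 SDH genes, UQCR genes, CYC1, COX genes of the subunit 4 to 8 series, and ATP5 genes. Of 23710 gene symbols, 89 were members, and 3 further matches (a pseudogene each of ATP5E and UQCRB, and the antisense gene NDUFB2-AS1) were left out. The members comprised 7 core and 31 accessory genes of complex I, 4 of complex II, 9 of complex III, 16 of complex IV, 15 of complex V, and 7 that carry such a name but encode no subunit of the standard complexes, such as the supercomplex factor COX7A2L, readthrough genes and intronless copies.

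RNA-seq of poly(A) RNA was available for 30 samples, 3 replicates of each of 10 conditions. V16D is a castration-resistant derivative of the LNCaP prostate cancer line, and MR49F is its enzalutamide-resistant counterpart, which arose in castrated mice under the drug. In the first experiment V16D and MR49F cells in full serum (RPMI-1640 with 10% FBS, the drug withdrawn beforehand) received 0.1% DMSO vehicle or 10 μM enzalutamide for 24 h. In the second, MR49F cells only were held for 72 h in charcoal-stripped serum, which is depleted of steroids, and then received vehicle, 1 nM DHT, 10 μM enzalutamide, 500 nM JQ-1, DHT with JQ-1, or enzalutamide with JQ-1 for 24 h. Each line stands for 1 derivation, and drug resistance and other differences between the lines cannot be told apart. In bulk RNA, fewer cells with a message and less message per cell cannot be told apart either. The study calls its replicates biological and combined wells to make each, but the labels do not say that they were separate cultures, and p-values may measure only the spread between samples.

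Oxidative phosphorylation makes ATP at the inner mitochondrial membrane. Complex I passes electrons from NADH, and complex II from succinate, to ubiquinone; complex III hands them through cytochrome c to complex IV, which reduces oxygen; and complex V, the ATP synthase, uses the proton gradient so built. Most subunits are encoded in the nucleus and imported, and their promoters are known for sites of NRF1 and of ETS factors such as GABP. Several subunits exist as paralogous genes, some of them restricted to muscle, lung or testis.

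Promoter sequences are shown for 5 members on which the results turn, as the 250 bases before the RefSeq transcription start (build GRCh38.p14, 5′ to 3′ on the strand of the gene). Capitals mark the motifs found as exact matches. ATP5G1 (now ATP5MC1; chr17:48892537-48892786, plus strand), the member that fell most with JQ-1 alone on the scale of log2(FPKM + 1), held none of those searched. NDUFB4 (chr3:120596086-120596335, plus strand), which was called in most comparisons, held an NRF1 motif, and SDHD (chr11:112086623-112086872, plus strand), lower in the resistant line, held an NRF1 and an ETS motif. COX6A1 (chr12:120437863-120438112, plus strand), which rose with JQ-1, held an ETS motif, and ATP5I (now ATP5ME; chr4:674277-674526, minus strand), which fell with it, an E-box.
ATP5G1: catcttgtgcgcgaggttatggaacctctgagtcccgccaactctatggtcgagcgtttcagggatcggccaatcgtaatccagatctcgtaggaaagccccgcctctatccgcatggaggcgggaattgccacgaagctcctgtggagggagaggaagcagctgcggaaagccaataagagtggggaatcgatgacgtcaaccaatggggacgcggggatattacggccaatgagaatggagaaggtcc
NDUFB4: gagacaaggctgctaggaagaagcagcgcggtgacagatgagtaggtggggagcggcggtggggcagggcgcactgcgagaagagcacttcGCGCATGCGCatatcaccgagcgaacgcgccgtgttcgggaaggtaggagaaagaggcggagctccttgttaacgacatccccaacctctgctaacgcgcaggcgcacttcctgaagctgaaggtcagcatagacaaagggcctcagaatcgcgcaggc
SDHD: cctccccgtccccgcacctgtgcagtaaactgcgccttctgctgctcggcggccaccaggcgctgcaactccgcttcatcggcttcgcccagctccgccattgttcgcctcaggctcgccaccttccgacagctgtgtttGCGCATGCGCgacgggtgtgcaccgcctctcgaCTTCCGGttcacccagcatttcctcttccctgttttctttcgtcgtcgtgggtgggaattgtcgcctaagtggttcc
COX6A1: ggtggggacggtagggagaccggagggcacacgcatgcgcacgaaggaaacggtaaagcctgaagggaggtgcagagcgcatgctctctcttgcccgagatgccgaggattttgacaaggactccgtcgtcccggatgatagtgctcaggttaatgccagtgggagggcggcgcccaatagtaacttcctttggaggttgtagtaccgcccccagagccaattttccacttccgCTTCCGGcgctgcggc
ATP5I: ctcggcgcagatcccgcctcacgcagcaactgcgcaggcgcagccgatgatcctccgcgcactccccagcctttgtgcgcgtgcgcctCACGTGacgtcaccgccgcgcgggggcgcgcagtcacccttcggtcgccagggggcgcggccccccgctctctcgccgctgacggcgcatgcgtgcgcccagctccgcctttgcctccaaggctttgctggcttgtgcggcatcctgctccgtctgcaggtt

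The sequence table matched 69 of the 89 members, and both strands were searched. Only exact matches to a motif were counted, so a promoter without one may still hold a similar sequence. The ETS motif CCGGAAG stood in 16 of these 69 promoters (23.2%) and in 8.41% of 35116 promoters in the table. The palindromic NRF1 motif, in capitals in the NDUFB4 promoter, stood in 3 (4.35%), those of ATP5C1, NDUFB4 and SDHD, against 0.965% of all promoters. The E-box CACGTG was present in 6 members (8.7%, against 6.22%), and the GC box GGGGCGGGG in 10 (14.5%, against 14.4%). The YY1 motif AAGATGGCG occurred in 1 member (1.45%, against 0.612%). The estrogen-related receptor motif TCAAGGTCA and the palindromic androgen response element occurred in 0 of the 69, and in 0.336% and 0.00285% of all promoters. These matches describe letters in the window and show no binding.

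Reads counted on genes ranged from 13170504 to 21154962 per sample in full serum and from 982130 to 1813262 in charcoal-stripped serum. These were 72.97 to 77.81% and 5.13 to 7.66% of the reads listed as on genes, on no gene or ambiguous. Reads listed as not uniquely aligned were left out of these shares. In charcoal-stripped serum 1.217 to 1.819% of gene reads lay on 425 antisense symbols, against 0.231 to 0.297% in full serum. NDUFB2 had 22 to 63 reads there and its antisense gene NDUFB2-AS1 137 to 311, whereas the FPKM (a level per transcript length and per sequenced library) of the same samples were 88.6 to 178 for NDUFB2 and 0.381 to 1.27 for NDUFB2-AS1. Results in charcoal-stripped serum were therefore taken from FPKM, with the counts beside them, and results in full serum from counts. Counts are given as CPM, counts scaled to a fixed total for the normalised library. A member was called when its Benjamini-Hochberg adjusted p, over all genes tested, was at most 0.05 in edgeR's quasi-likelihood test (counts) or in limma on log2(FPKM + 1). All ± values beside a log2 fold change are standard errors. FPKM of the sera differed widely for an intronless copy of UQCRH (UQCRHL had 98.0, 96.9 and 89.7 FPKM in V16D vehicle samples of full serum and 0.354, 0.345 and 0.774 in vehicle samples of stripped serum), so levels were not compared across sera. The luminal genes KRT8 and KRT18 were present (109 to 550 FPKM and 119 to 523 FPKM over all samples), and the blood marker PTPRC and the basal markers TP63 and KRT5 stayed at or below 0.0884 FPKM. The fibroblast marker COL1A1 had 0.616 to 1.77 FPKM over both sera, and the endothelial marker PECAM1 0.458 to 0.768 FPKM in full serum and at most 0.0115 FPKM in stripped serum, and their part in the results was not tested. KLK3, the prostate-specific antigen gene, changed with enzalutamide by -1.89 ± 0.02 (log2 CPM) in V16D cells and by -0.09 ± 0.06 (adjusted p = 0.341) in MR49F cells of full serum, and in stripped serum it rose by 2.15 ± 0.05 with DHT (log2 of FPKM + 1). TMPRSS2, a further androgen-regulated gene, rose there by 2.82 ± 0.04 with DHT and 1.93 ± 0.05 with enzalutamide.

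The subunits were abundant in these cells. In vehicle-treated MR49F cells of charcoal-stripped serum the median member had 90.8 FPKM, 42 of 89 reached 100 FPKM and 9 stayed below 1 FPKM. Per length, complex IV had the highest median (148 FPKM), followed by complex V (135 FPKM), complex III (81.6 FPKM), the accessory (80.7 FPKM) and core (76.2 FPKM) genes of complex I, and complex II (48.9 FPKM). COX7C, a small subunit of complex IV, was highest with 1173, 1232 and 953 FPKM, ahead of UQCRH, the hinge protein of complex III, with 693, 754 and 735 FPKM. COX7C stood above UQCRH in every one of these samples. In vehicle-treated MR49F cells of full serum UQCRH had 695, 622 and 651 FPKM and COX7C 379, 605 and 696 FPKM, so that their order differed between samples.

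Where a subunit has paralogs, 1 gene carried nearly all of the signal, with the exception of subunit c. COX4I2, COX6A2, COX6B2, COX7A1, COX7B2 and COX8C, the isoforms of lung, muscle or testis, averaged below 1 FPKM in vehicle-treated cells of stripped serum, while their ubiquitous partners COX4I1, COX6A1, COX6B1, COX7A2, COX7B and COX8A averaged 219.5 ± 15.6, 592 ± 40.4, 242 ± 13.5, 145 ± 5.48, 488 ± 33.8 and 492 ± 11.5 FPKM (SD, n = 3). NDUFA4L2, the hypoxia-inducible relative of NDUFA4, had 1.22, 1.33 and 1.46 FPKM in these samples against 73.8, 79.9 and 73.6 FPKM of NDUFA4. NDUFA4 bears a complex I name but is known as a subunit of complex IV. By their names, it and NDUFA4L2 were counted with the accessory genes of complex I throughout. The 3 genes of subunit c, ATP5G1, ATP5G2 and ATP5G3, encode the same mature protein behind different import signals, and they shared its messages as 30.6% ± 0.911, 57.8% ± 1.33 and 11.6% ± 0.529 of their summed FPKM (SD, n = 3).

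**Figure D1:**
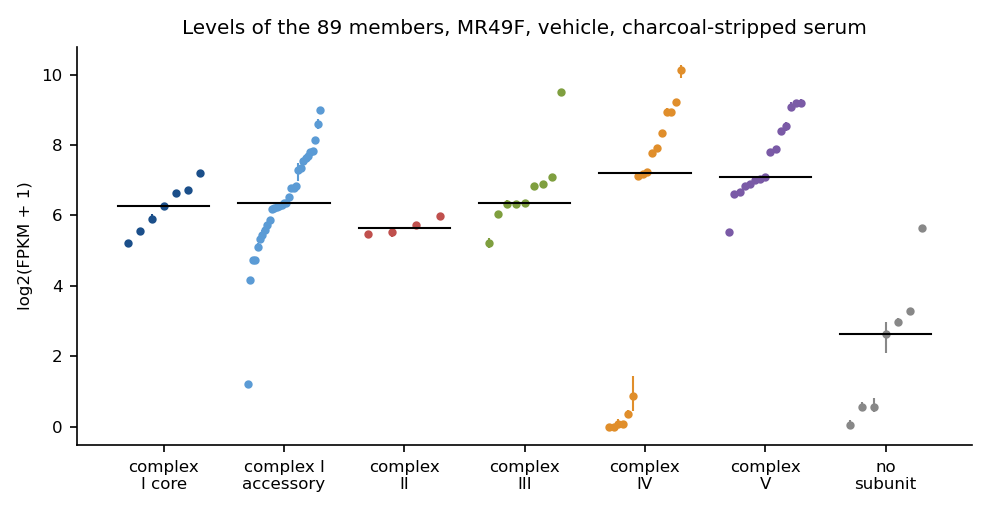
Each point is a member's mean in the 3 vehicle-treated samples of MR49F cells in charcoal-stripped serum, as log2(FPKM + 1), by complex. Vertical lines span the 3 samples and black bars mark the median of each group, which was highest for complex IV (148 FPKM) although 6 of its 16 genes lay below 1 FPKM.

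The first comparison asked how the resistant line differs from its parent before treatment. Most called subunits were higher in MR49F than in V16D cells: of 80 members tested, 38 were higher and 14 lower (47.5% and 17.5%), when 63.7% of all 14013 genes tested were called, 31.9% and 31.8% in these directions. The median member stood at a log2 fold change of 0.16 and the median gene at -0.0049. Counting changes of at least 25% upward or 20% downward, 25 members were higher and 10 lower, against 23.8% and 23.6% of all genes. The accessory subunits of complex I made up much of the higher side (17 higher and 3 lower of 31), whereas in complex II 0 of 4 were higher and 2 lower.

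NDUFB11 (chrX:47001470-47004865, GRCh37), an accessory subunit of the membrane arm of complex I, had 121, 133 and 135 CPM in MR49F and 64.1, 69.0 and 65.3 CPM in V16D cells. Every MR49F sample was above every V16D sample, with a log2 fold change of 0.97 ± 0.06, adjusted p = 5.03e-08 (edgeR, n = 3 per group). COX5B (chr2:98262525-98264846), the zinc-binding subunit of complex IV, had 141, 125 and 133 CPM against 76.4, 81.0 and 78.4 CPM, again without overlap (0.76 ± 0.06, adjusted p = 3.46e-07, edgeR). NDUFA7 and NDUFA2, further accessory subunits of complex I, were higher by 0.78 ± 0.07 and 0.78 ± 0.11 on the log2 scale. ATP5E, the epsilon subunit of ATP synthase, rose by 2.67 ± 0.29 on the log2 scale in counts, but from 8 to 13 reads to 58 to 75 reads, and its FPKM, 271, 284 and 267 in V16D and 224, 275 and 355 in MR49F cells, overlapped (log2 fold change 0.03, adjusted p = 0.875, limma). The gene has near-identical copies elsewhere in the genome, so its counts are uncertain.

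Lower in MR49F cells were both membrane anchors of complex II, succinate dehydrogenase. SDHD (chr11:111957548-111990739) had 33.2, 55.4 and 62.5 CPM in MR49F and 77.3, 75.9 and 77.5 CPM in V16D cells. The groups did not overlap, but MR49F replicate 1 was far below the other two, and the log2 fold change of -0.61 ± 0.16, adjusted p = 0.00493 (edgeR) became -0.39 without it. SDHC, chosen after its values were seen, had 79.0, 96.0 and 102 CPM against 126, 131 and 134 CPM, also without overlap (-0.49 ± 0.08, adjusted p = 0.000166, edgeR). The catalytic subunits SDHA, the flavoprotein, and SDHB, the iron-sulfur protein, differed by -0.07 ± 0.05 and 0.08 ± 0.06 (adjusted p = 0.209 and 0.251, edgeR). UQCRC2, a core protein of complex III, was at 208, 211 and 204 CPM against 312, 297 and 304 CPM. This is a fall without overlap (-0.55 ± 0.04, adjusted p = 6.47e-07, edgeR), and its partner UQCRC1 fell too (-0.17 ± 0.05, adjusted p = 0.0122, edgeR). NDUFA5 and NDUFB5 of complex I had log2 fold changes of -0.66 ± 0.06 and -0.61 ± 0.08, NDUFS1, the large iron-sulfur subunit of the core, -0.37 ± 0.05, and ATP5S, a coupling factor, -0.68 ± 0.09. The lowest estimate of all members, singled out after its values were seen, was that of the testis isoform COX7B2, with 17, 11 and 18 reads in V16D and 1, 0 and 2 reads in MR49F cells.

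MR49F vehicle replicate 1 stood apart for a number of subunits. Its FPKM of SDHD, NDUFB2 and COX7C were 19.6, 49.6 and 379, when the other replicates had 33.9 and 38.7, 85.2 and 107, and 605 and 696. Without this library 49 members were higher and 19 lower in MR49F cells, and of 14261 genes tested 4958 were higher and 4825 lower. Its part in the difference between the lines was otherwise not tested.

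**Figure D2:**
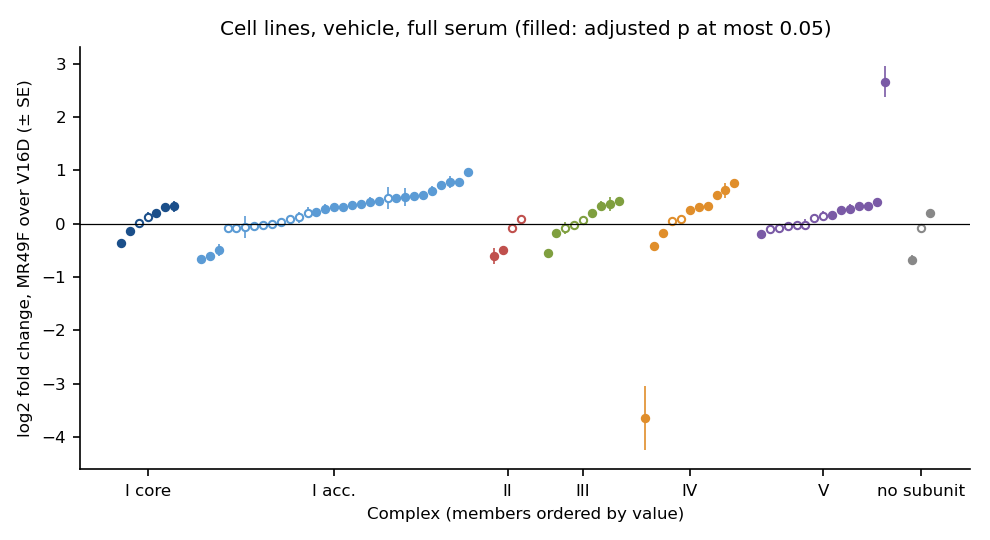
Log2 fold change of CPM, MR49F over V16D, vehicle in full serum, for the 80 members tested, ordered by value within each complex (bars: standard error; 3 samples per line). Filled points were called, and the outlying points are COX7B2 (-3.64), with few reads, and ATP5E (2.67), whose FPKM overlapped between the lines.

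In V16D cells enzalutamide left the subunits within a narrow band. Of 80 members tested 18 rose and 2 fell (22.5% and 2.5%), against 18.2% and 19.3% of 14079 genes, and 0 of the 20 reached 25% upward or 20% downward, as 7% of all genes did upward and 6.42% downward. NDUFB4 (chr3:120315175-120321354), an accessory subunit of complex I, had 346, 358 and 350.5 CPM with enzalutamide and 290.2, 299 and 291 CPM with vehicle. All treated samples were above all vehicle samples, and the log2 fold change of 0.26 ± 0.03, adjusted p = 7.06e-22 (edgeR) was the highest of the called members. SDHC rose by 0.18 ± 0.03, SDHD by 0.13 ± 0.04, NDUFA8 by 0.17 ± 0.05 and CYC1, the cytochrome c1 of complex III, by 0.13 ± 0.03 on the log2 scale, each without overlap. ATP5A1 and ATP5B, the alpha and beta subunits that form the catalytic head of ATP synthase, rose by 0.10 ± 0.02 and 0.07 ± 0.02 (adjusted p = 5.09e-05 and 0.00805, edgeR). NDUFB10 and NDUFC1, the members that fell and were named after their values were seen, moved by -0.10 ± 0.03 and -0.11 ± 0.05. The replicates of both members overlapped between the groups. The common biological coefficient of variation that edgeR estimated from these 6 samples was 1.83%, against 5.25% in the same comparison of MR49F cells.

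In MR49F cells of full serum, 1 of 79 members tested was called with enzalutamide, against 8.48% of 13927 genes (3.86% higher and 4.62% lower, and 2.01% lower by at least 20%). NDUFB10 (chr16:2009539-2011976), a complex I accessory subunit with disulfide bonds formed in the intermembrane space, had 234, 237 and 228 CPM with enzalutamide and 325, 266 and 257 CPM with vehicle. The groups did not overlap, and vehicle replicate 1 was the highest (-0.28 ± 0.08, adjusted p = 0.0488, edgeR). The call was lost in 4 of 6 fits that each left out 1 sample (adjusted p from 0.0747 to 0.198, edgeR). In FPKM the change was -0.23 with an adjusted p of 0.142 (limma). The count of calls rests on single libraries: it was 0 in the lowest of these fits, 8 without vehicle replicate 1 (5 higher, 3 lower) and 15 without vehicle replicate 3 (11 higher, 4 lower). Calls over all genes rose as well. They were 1132 higher and 1401 lower of 14226 without vehicle replicate 1, and 753 and 969 of 14227 without vehicle replicate 3. SDHA changed by -0.02 ± 0.04, CYC1 by 0.14 ± 0.06, COX4I1 by 0.07 ± 0.05 and ATP5B by 0.24 ± 0.11, and none of these passed the test. The response of the lines differed in 1 member of 80, when 6.95% of 14471 genes were called in the interaction term, 4.19% higher and 2.76% lower (3.17% and 1.68% with at least 25% upward or 20% downward). NDUFB4 rose by 0.26 ± 0.03 in V16D cells and had 0.02 ± 0.06 in MR49F cells, where it was not called (adjusted p = 0.846). The interaction was -0.25 ± 0.06, adjusted p = 0.0192 (edgeR, 12 samples), and its call was lost in 4 of 12 fits that each left out 1 sample.

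DHT was given to MR49F cells in charcoal-stripped serum to see the effect of an androgen where little is present. The called subunits of complexes II to V were mostly lower. Of 80 members tested 12 rose and 36 fell (15% and 45%), and over all 12180 genes 28.9% rose and 43.2% fell, so that the share that fell was near that of all genes and the share that rose was below it. The median member changed by -0.10 and the median gene by -0.08 on the log2 scale. With at least 25% upward or 20% downward, 3 members rose and 14 fell (17.7% and 27.4% of all genes). With FPKM scaled to the median ratio between samples 17 rose and 25 fell (34.2% and 37.1% of all genes), and in the counts 4 rose and 6 fell (19.4% and 18.1%). The fold changes of NDUFB2 and SDHC below were small in the counts (-0.09 and -0.06, adjusted p = 0.781 and 0.743, edgeR). Those of NDUFB1 and NDUFV3 below kept their direction in the counts but were not called there (-0.39 and 0.29, adjusted p = 0.1605 and 0.106, edgeR).

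In complex II 3 of 4 genes fell, when 43.2% of all genes did. SDHA (chr5:218418-257197) had 43.5, 44.4 and 46.9 FPKM with DHT and 60.3, 60.9 and 64.3 FPKM with vehicle. No DHT sample reached a vehicle sample (-0.45 ± 0.04, adjusted p = 2.28e-05, limma). SDHC fell by 0.46 ± 0.04 and SDHD, chosen here after its values were seen, by 0.44 ± 0.07, whereas SDHB, at 54.2, 51.7 and 52.6 FPKM with DHT and 51.5, 51.5 and 53.6 FPKM with vehicle, overlapped (0.02 ± 0.04, adjusted p = 0.696, limma). In complex I, NDUFB4 had 285, 286 and 303 FPKM with DHT and 498, 522 and 498 FPKM with vehicle. It was the lowest estimate among members, without overlap (-0.79 ± 0.05, adjusted p = 9.64e-07, limma). NDUFB2 and NDUFB1, small accessory subunits, fell by 0.67 ± 0.13 and 0.47 ± 0.05. NDUFB10 went the other way, with 261, 274 and 303 FPKM against 188, 194 and 207 FPKM. Its samples were separate too (0.51 ± 0.06, adjusted p = 0.000102, limma). NDUFS8, an iron-sulfur subunit of the core, and NDUFV3, of the NADH module, rose by 0.32 ± 0.06 and 0.32 ± 0.06, while NDUFV1, which binds NADH, fell by 0.21 ± 0.04.

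In complex III, 5 of 9 genes fell with DHT and 0 rose, against 43.2% and 28.9% of all genes. CYC1 was among those that fell (-0.20 ± 0.06, adjusted p = 0.0180, limma), and UQCRFS1, the Rieske protein, changed by 0.01 ± 0.05 (adjusted p = 0.922). In complex IV, COX7C had 833, 675 and 657 FPKM with DHT and 1173, 1232 and 953 FPKM with vehicle. It fell by 0.63 ± 0.12 without overlap, with COX6C (-0.28 ± 0.05) and COX4I1 (-0.19 ± 0.06). In complex V, ATP5A1 and ATP5B fell by 0.31 ± 0.05 and 0.20 ± 0.05, and ATP5G1 (chr17:46970127-46973233) rose, from 119.9, 120.0 and 114 FPKM to 149, 149.9 and 149 FPKM. The rise was without overlap (0.34 ± 0.04, adjusted p = 5.51e-05, limma), and the supercomplex factor COX7A2L rose by 0.26 ± 0.05. In the counts ATP5G1 and COX7A2L had 0.44 and 0.33, and neither was called (adjusted p = 0.161 and 0.142, edgeR).

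Enzalutamide in charcoal-stripped serum changed fewer subunits. Of 80 members tested 2 rose and 12 fell (2.5% and 15%), against 19.3% of 12178 genes in either direction, and NDUFB4 was the only member changed by at least 25% upward or 20% downward (8.05% of all genes upward, 6.11% downward). NDUFB4 had 393, 394 and 368 FPKM with enzalutamide, all between the DHT and the vehicle samples (-0.39 ± 0.05, adjusted p = 0.000295, limma). The members that rose were NDUFB10 (0.20 ± 0.05) and ATP5G1 (0.18 ± 0.04), both of which also rose with DHT, a comparison that uses the same vehicle samples. COX8A, a small subunit of complex IV, fell by 0.23 ± 0.06. SDHC fell by 0.21 ± 0.04, SDHA by 0.18 ± 0.04, NDUFA4 by 0.21 ± 0.04 and NDUFB1 by 0.19 ± 0.06. The calls of NDUFB10 and NDUFB1 were lost in 3 and 4 of 6 fits that each left out 1 sample, and that of ATP5G1 in 1 of 6. In the counts NDUFB4 alone was called (4.38% and 2.87% of all genes).

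The ligands were also set against each other, DHT at 1 nM and enzalutamide at 10 μM. With DHT 5 members were higher and 27 lower than with enzalutamide (6.25% and 33.8% of 80), against 20.9% and 36.5% of 12029 genes, 57.4% in all (9.51% and 19.2% with at least 25% upward or 20% downward). With FPKM scaled to the median ratio, 12 were higher and 14 lower (27.4% and 29.7% of all genes), and among all genes called the share higher moved from 36.4% to 48%. In the counts 1 was higher and 1 lower (10.3% and 9.13% of all genes). NDUFB10 was higher with DHT by 0.31 ± 0.06, adjusted p = 0.00288, and ATP5G1 by 0.16 ± 0.04, adjusted p = 0.00924 (limma). In the counts these were 0.54 (adjusted p = 0.000306) and 0.29 (adjusted p = 0.427, edgeR). NDUFB2 was lower (-0.47 ± 0.08), as were NDUFB4 (-0.40 ± 0.05), COX7C (-0.38 ± 0.09) and NDUFB1 (-0.28 ± 0.06). SDHD had 34.3, 31.8 and 33.9 FPKM with DHT and 41.7, 46.8 and 42.8 FPKM with enzalutamide. Those groups were separate (-0.38 ± 0.05, adjusted p = 0.000305, limma). In the counts NDUFB2, NDUFB4, COX7C, NDUFB1 and SDHD had -0.16, -0.10, -0.32, -0.20 and -0.46 (adjusted p = 0.613, 0.563, 0.0745, 0.592 and 0.206, edgeR), and none of these passed the test.

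**Figure D3:**
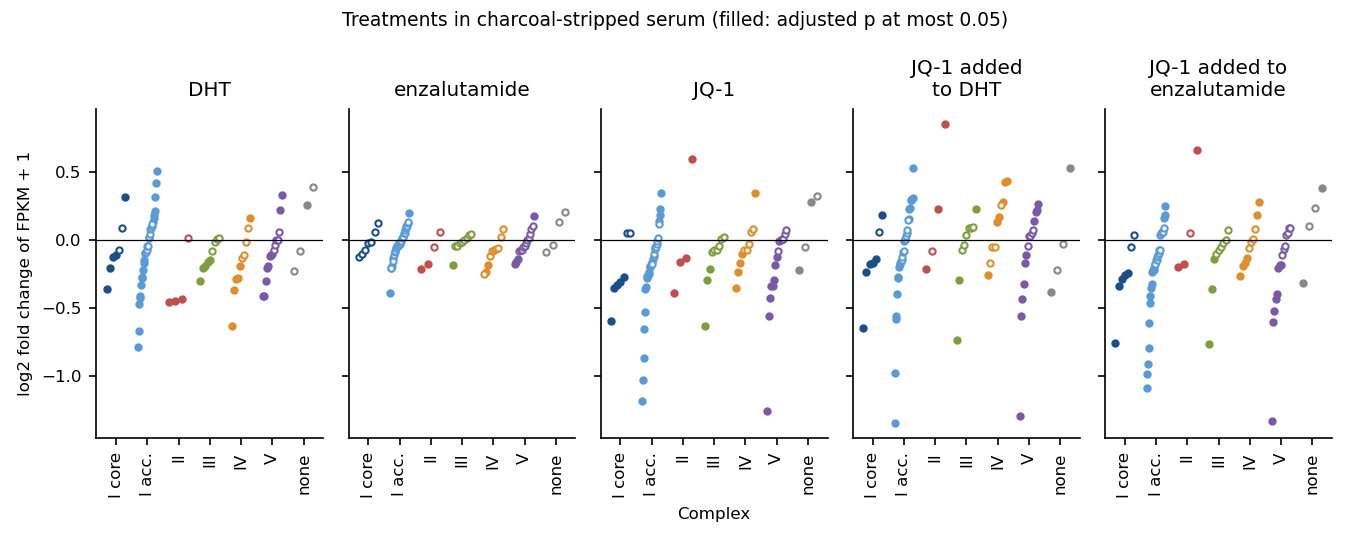
Log2 fold change of FPKM + 1 for each member tested in 5 comparisons of MR49F cells in charcoal-stripped serum (3 samples per condition; JQ-1 added to DHT or enzalutamide is set against that ligand alone), by complex, with core and accessory (acc.) genes of complex I apart and members that are no subunit under none. Filled points were called; the lowest points under JQ-1 are ATP5G1, NDUFB4, NDUFC1 and NDUFB10, and the high red point is SDHA.

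JQ-1 alone lowered many subunits, 3 of them by more than 2-fold on the scale of log2(FPKM + 1), and raised a few others. Of 80 members tested 7 rose and 41 fell (8.75% and 51.2%), when 32.5% of 12203 genes rose and 42.6% fell. The median member changed by -0.13 and the median gene by -0.06. With at least 25% upward or 20% downward, 3 rose and 18 fell, against 18.4% and 28.6% of all genes, so that at this size the shares in both directions were below those of all genes. The counts gave 5 that rose and 13 that fell (22.8% and 23.9% of all genes). With FPKM scaled to the median ratio, the share higher among all genes called moved from 43.2% to 48.3%. The balance among members may therefore depend on scaling.

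In complex I, 17 of 31 accessory and 5 of 7 core genes fell, when 42.6% of all genes did. NDUFB4 had 216, 221 and 228 FPKM with JQ-1 and 498, 522 and 498 FPKM with vehicle. Every JQ-1 sample was below 50% of every vehicle sample, with a log2 fold change of -1.19 ± 0.04, adjusted p = 5.22e-08 (limma) and -1.09 in the counts. NDUFC1 (chr4:140188034-140223705), an accessory subunit of the membrane arm, had 35.6, 38.1 and 39.2 FPKM against 73.8, 80.4 and 80.7 FPKM. It too fell without overlap (-1.04 ± 0.05, adjusted p = 3.95e-07, limma). NDUFB10 had 108, 108 and 105 FPKM with JQ-1 and fell by 0.87 ± 0.04. NDUFS1 of the core fell by 0.27 ± 0.03, and NDUFV1 changed by 0.05 ± 0.04 (adjusted p = 0.221). NDUFV3 and NDUFA3 rose, by 0.35 ± 0.06 and 0.23 ± 0.06. The low NDUFA4L2 went from 1.22, 1.33 and 1.46 FPKM to 0.455, 0.592 and 0.400 FPKM, which passed the test, but at levels close to the filter of 1 FPKM.

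The genes of complex II parted. SDHA had 91.6, 94.0 and 96.9 FPKM with JQ-1 and 60.3, 60.9 and 64.3 FPKM with vehicle. All JQ-1 samples were above all vehicle samples (0.60 ± 0.04, adjusted p = 1.88e-06, limma), and the counts gave 0.71 (adjusted p = 4.39e-09, edgeR). SDHB had 48.5, 46.2 and 47.9 FPKM against 51.5, 51.5 and 53.6 FPKM. It fell slightly and without overlap (-0.13 ± 0.03, adjusted p = 0.00717, limma), though in the counts its estimate was 0.14 (adjusted p = 0.459). SDHC and SDHD, chosen here after their values were seen, fell by 0.17 ± 0.04 and 0.39 ± 0.08, and neither was called in the counts. SDHA has pseudogene copies, so its reads may be shared with them. In complex III, CYC1 had 81.5, 89.6 and 89.5 FPKM against 135, 129 and 143 FPKM. It fell without overlap (-0.64 ± 0.05, adjusted p = 8.48e-06, limma), and UQCRC1 and UQCRFS1 changed by 0.02 ± 0.04 and -0.08 ± 0.04, neither called. In complex IV, COX6A1 (chr12:120875893-120878540) rose, with 723, 765 and 774 FPKM against 551, 631 and 594 FPKM. The groups were separate (0.35 ± 0.06, adjusted p = 0.000522, limma), while COX4I1 fell by 0.17 ± 0.06 with overlapping samples and COX6C changed by -0.03 ± 0.05 (adjusted p = 0.527).

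In complex V, 8 of 15 genes fell and 0 rose, against 42.6% and 32.5% of all genes. ATP5G1 had 48.3, 51.7 and 46.0 FPKM with JQ-1 and 119.9, 120.0 and 114 FPKM with vehicle. This was the lowest estimate of all members on the scale of log2(FPKM + 1), without overlap (-1.26 ± 0.05, adjusted p = 1.09e-07, limma; -1.11 in the counts, adjusted p = 0.00127, edgeR). Of the other subunit c genes, described because they encode the same protein and chosen after their values were seen, ATP5G2 (chr12:54026510-54071192) had 151, 150.3 and 149.8 FPKM against 213, 232 and 223 FPKM, and ATP5G3 (chr2:176040986-176046438) had 47.9, 45.3 and 45.5 FPKM against 45.7, 47.1 and 41.9 FPKM. ATP5G2 fell without overlap (-0.56 ± 0.04, adjusted p = 2.78e-06, limma), and ATP5G3 overlapped (0.04 ± 0.05, adjusted p = 0.450). The share of ATP5G1 in the summed FPKM of the 3 genes was 19.8% ± 0.957 with JQ-1, 30.6% ± 0.911 with vehicle and 36.4% ± 0.501 with DHT (SD, n = 3), and the sum itself went from 386 ± 11.8 FPKM with vehicle to 245 ± 3.5 FPKM with JQ-1. The catalytic subunits ATP5A1 and ATP5B changed by -0.08 ± 0.05 and -0.00 ± 0.04, neither called.

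**Figure D4:**
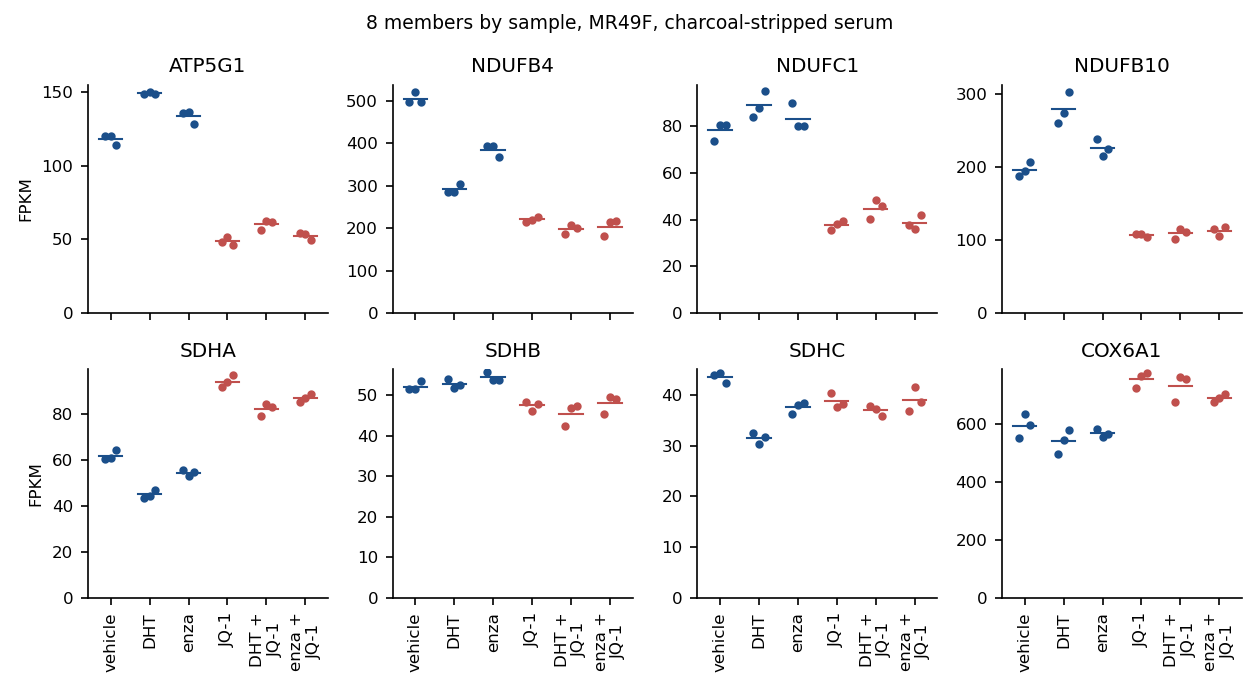
FPKM of 8 members in each sample of MR49F cells in charcoal-stripped serum (points: samples; bars: mean of 3; blue without and red with JQ-1; enza, enzalutamide). In ATP5G1, NDUFB4, NDUFC1 and NDUFB10 every sample with JQ-1 lies below every sample without it, and in SDHA every one lies above.

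JQ-1 added to DHT, set against DHT alone, raised 22 and lowered 27 of 79 members tested (27.8% and 34.2%), against 35.5% and 43.3% of 11856 genes. With at least 25% upward or 20% downward, 5 rose and 12 fell (24% and 31.7% of all genes). The direction of the balance depends on scaling: with FPKM scaled to the median ratio 29 rose and 19 fell (38.6% and 40.6% of all genes), and in the counts 18 rose and 12 fell (26.7% and 28%). NDUFB10 had 101, 115 and 111 FPKM with both agents and 261, 274 and 303 FPKM with DHT. This was the lowest estimate, without overlap (-1.35 ± 0.07, adjusted p = 4.28e-07, limma). ATP5G1 had 56.2, 62.2 and 62.1 FPKM with both and 149, 149.9 and 149 FPKM with DHT. These were again apart (-1.30 ± 0.05, adjusted p = 7.98e-08, limma). NDUFC1, CYC1 and NDUFS8 fell by 0.98 ± 0.07, 0.73 ± 0.06 and 0.65 ± 0.06. SDHA rose from 43.5, 44.4 and 46.9 FPKM to 79.2, 84.4 and 83.0 FPKM. The groups were separate (0.86 ± 0.04, adjusted p = 4.34e-07, limma). COX7A2, the ubiquitous subunit 7a, rose by 0.43 ± 0.04, NDUFA2 by 0.53 ± 0.04, COX6C by 0.28 ± 0.04, ATP5A1 by 0.22 ± 0.05 and ATP5B by 0.20 ± 0.05. In the comparison of DHT with vehicle, which uses the same DHT samples, these members had -0.37, -0.33, -0.28, -0.31 and -0.20 on the log2 scale. COX6A1 and ATP5S rose as well, by 0.44 ± 0.07 and 0.53 ± 0.09.

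JQ-1 added to enzalutamide, set against enzalutamide alone, raised 7 and lowered 38 of 80 members (8.75% and 47.5%), against 31.2% and 44.4% of 12148 genes (75.7% in all), and 2 rose by at least 25% and 17 fell by at least 20% (19.7% and 31.3% of all genes). The counts gave 6 that rose and 15 that fell (22% and 23.2% of all genes). With FPKM scaled to the median ratio, the share higher among all genes called moved from 41.3% to 48.2%. Here too the balance among members may depend on scaling. ATP5G1 had 54.4, 53.6 and 49.3 FPKM with both agents and 136, 137 and 129 FPKM with enzalutamide. It was again the lowest on the scale of log2(FPKM + 1), without overlap (-1.33 ± 0.05, adjusted p = 4.86e-08, limma). In the counts its change was -0.74 with an adjusted p of 0.0338 in edgeR and of 0.216 in DESeq2. NDUFC1 fell by 1.09 ± 0.07, NDUFB10 by 0.99 ± 0.06, NDUFB4 by 0.92 ± 0.07, and NDUFB7, a further accessory subunit of complex I, by 0.80 ± 0.06. CYC1 fell by 0.76 ± 0.06. SDHA had 85.3, 86.9 and 88.6 FPKM against 55.8, 52.9 and 54.8 FPKM. It rose without overlap (0.66 ± 0.04, adjusted p = 5.46e-07, limma), with ATP5S (0.38 ± 0.07), COX6A1 (0.28 ± 0.04), NDUFA2 (0.25 ± 0.05) and NDUFA12 (0.19 ± 0.05). In the counts the adjusted p of ATP5S was 0.276 and that of NDUFA12 0.185 (edgeR), so neither was called there.

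Each JQ-1 comparison had its own control samples. In all 3 of them, 25 of the 79 members tested in each were called lower and 4 higher (31.6% and 5.06%), against 32.2% and 25% of 11627 genes, so that the share lowered was near that of all genes and the share raised was below it. The latter were SDHA, COX6A1, NDUFA12 and ATP5S. In the counts NDUFA12 was called in none of the 3 (adjusted p = 0.309 with JQ-1, 0.0559 on DHT and 0.185 on enzalutamide, edgeR) and ATP5S only on DHT (adjusted p = 0.182, 0.00525 and 0.276). The former included NDUFS1, NDUFS3, NDUFS7 and NDUFS8 of the complex I core, NDUFB4, NDUFB7, NDUFB8, NDUFB10 and NDUFC1 of its membrane arm, SDHB of complex II, CYC1 and UQCR10 of complex III, COX5A, and ATP5G1, ATP5G2, ATP5D, ATP5F1, ATP5I and ATP5J of ATP synthase. In the counts fewer than 25 members were called lower in each of the 3 comparisons, so not all of the lowered members were called there. SDHB with JQ-1 alone had an estimate of the opposite sign in the counts. Of the 22 lowered members matched in the promoter table, 5 held the ETS motif (22.7%) and 4 the E-box (18.2%), against 23.2% and 8.7% of all 69 matched members, and with so few promoters this is a description only.

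**Figure D5:**
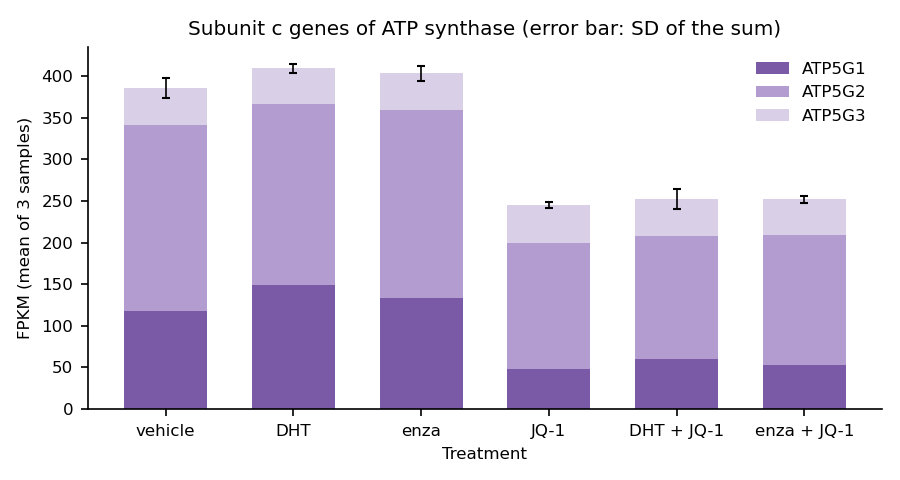
Mean FPKM of the subunit c genes ATP5G1, ATP5G2 and ATP5G3, stacked, in the 6 conditions of charcoal-stripped serum (3 samples each; error bar, SD of the sum). Under JQ-1 the sum went from 386 to 245 FPKM relative to vehicle, with ATP5G1 and ATP5G2 lower and ATP5G3 at a like level.

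Whether JQ-1 changed the response to a ligand was asked with the interaction term. The DHT response was shifted upward by JQ-1 in 23 members and downward in 3 of 80 (28.8% and 3.75%), against 25% and 23% of 12469 genes, and the median member moved by 0.09 and the median gene by 0.01. With 25% upward or 20% downward or more these were 11 and 1 (15.3% and 14% of all genes). The counts gave 3 and 1 (5.79% and 6.55% of all genes). NDUFB4, with a log2 fold change of -0.79 for DHT alone, had 216, 221 and 228 FPKM with JQ-1 and 186, 208 and 199.6 FPKM with DHT and JQ-1. The DHT effect under JQ-1 was smaller by the interaction of 0.63 ± 0.06, adjusted p = 8.66e-06 (limma, 12 samples). COX7C, NDUFA4, NDUFA2 and NDUFB1 shifted upward by 0.61 ± 0.18, 0.41 ± 0.11, 0.41 ± 0.08 and 0.40 ± 0.05, SDHA and ATP5A1 by 0.26 ± 0.06 and 0.30 ± 0.07. In the counts COX7C, NDUFA4, NDUFA2 and NDUFB1 had 0.48, 0.11, 0.24 and 0.34. None of these passed the test there (adjusted p = 0.0896, 0.759, 0.419 and 0.478, edgeR). NDUFB10 shifted downward: with JQ-1 it had 108, 108 and 105 FPKM, and with DHT and JQ-1 101, 115 and 111 FPKM. The samples overlapped (-0.48 ± 0.08, adjusted p = 0.000566, limma). NDUFV3 shifted by -0.28 ± 0.10, adjusted p = 0.0442 (limma), a call that was lost in 8 of 12 fits that each left out 1 sample (adjusted p from 0.0522 to 0.104) and without the filter on low values (0.0758), and in the counts it had -0.16 (adjusted p = 0.632, edgeR). ATP5G1 had an interaction of -0.04 ± 0.07 (adjusted p = 0.691, limma). For enzalutamide, 2 members were shifted upward and 0 downward, against 7.55% and 11.6% of 12454 genes: NDUFB4 (0.27 ± 0.09, adjusted p = 0.0440, limma) and SDHC, which was chosen after its values were seen (0.22 ± 0.07, adjusted p = 0.0369, limma). The call of NDUFB4 was lost in 11 of 12 fits that each left out 1 sample (adjusted p from 0.0593 to 0.0986, limma) and without the filter on low values (0.0824), and that of SDHC in 8 of 12. In the counts the NDUFB4 term had an adjusted p of 0.268 (edgeR).

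Genes that build and serve the complexes were counted from lists of their role. Of 37 assembly factors, 35 were tested with JQ-1 alone and 4 rose and 20 fell, with a median log2 fold change of -0.21 against -0.06 over all genes, of which 32.5% rose and 42.6% fell. With JQ-1 added to enzalutamide 6 rose and 20 fell of 35 (31.2% and 44.4% of all genes), and with JQ-1 added to DHT 8 rose and 17 fell of 35 (35.5% and 43.3%). Of 13 regulators of mitochondrial biogenesis, 11 were tested with JQ-1 alone and 3 rose and 6 fell. Of 13 citric acid cycle enzymes, which supply the electrons, 7 rose and 4 fell with JQ-1 alone, with a median of 0.17. Cytochrome c (CYCS) and the ATP synthase inhibitor ATPIF1 gave 1 that fell. With DHT 8 assembly factors rose and 13 fell of 35 (28.9% and 43.2% of all genes), and with enzalutamide in stripped serum 7 rose and 3 fell (19.3% in either direction). Between the lines 10 assembly factors were higher and 8 lower in MR49F cells of 34 tested, and of 13 citric acid cycle enzymes 3 were higher and 4 lower, against 31.9% and 31.8% of all genes.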

How the data were processed

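Poly(A) RNA was sequenced as strand-specific single reads. Per the labels and the study's methods, the authors aligned reads to hg19 with TopHat2 2.0.9, deposited HTSeq counts per gene (strand setting not given in the sources used here) and FPKM per RefSeq transcript from Cufflinks 2.1.1. Transcript FPKM were summed here to genes. Rows naming no gene stayed out of library sizes. Counts were tested with edgeR 4.0.16 (quasi-likelihood test, TMM, genes kept by filterByExpr at 10 counts, 15 in total), and CPM in the text are scaled within each comparison. Values of log2(FPKM + 1) were tested with limma 3.58.1 (trend, genes with at least 1 FPKM in 3 samples of the fit). Only the groups compared entered a fit, in R 4.3.3, and p-values were adjusted by Benjamini-Hochberg over all genes tested. DESeq2 1.42.0, other scalings, pseudocounts and filters, a replicate block and leaving out each sample were alternatives. On simulated data for V16D enzalutamide (14071 genes), edgeR recovered 100 of 100 genes changed 2-fold and 90 of 100 changed by 25% upward or 20% downward, and limma for DHT (12098 genes) recovered 100 and 68. The changed genes were drawn from those with more than 100 expected reads, and all genes of a simulation had the same dispersion. Simulated FPKM rested on an assumed gene length and depth. The data are less simple, so these rates are not the sensitivity of the real fits.

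Members and gene lists were chosen with earlier results of these data known. In each comparison the text names a set of members picked by role and up to 5 members per direction with the largest called change, separate replicates (not required for interactions), at least 5 FPKM and the same sign in the other unit. Other names are marked as chosen after their values were seen, or are given for their role. Promoters are RefSeq sequences of GRCh38.p14, and gene coordinates in the text are GRCh37. Depth ranges are given with the results. Some items are not reported here.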

Additional observations from a re-analysis of the deposited data

Results flagged for a closer look

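Groups had 3 samples each, so single samples were not tested as outliers. Only differences in the enzalutamide response between lines or sera were looked for here, and the interactions with JQ-1 are given above. Between the lines 1 member passed its test. NDUFB4 had an interaction of -0.2462 on the log2 scale (edgeR, adjusted p = 0.0192), and this call was lost in 4 of 12 fits that each left out 1 sample.

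Enzalutamide and vehicle samples of MR49F cells of 10 members stood without overlap in FPKM in both sera, but in opposite directions. They were 10 of the 80 members with at least 5 FPKM in some condition (12.5%), against 16.2% of 10345 such genes. The difference was not tested, because serum and experiment cannot be told apart. The gap between the log2 ratios, full minus stripped serum, was 0.3463 for ATP5B, 0.4041 for ATP5O, 0.3484 for ATP5S and 0.4442 for COX8A. It was 0.5205 for NDUFA4, 0.4832 for NDUFB1, 0.3829 for NDUFB5 and 0.4424 for SDHC, all of these higher with enzalutamide in full serum and lower in stripped serum. NDUFB10 and NDUFC2 went the other way, with -0.4362 and -0.1277. For SDHC the FPKM in vehicle samples of full serum were 20.8, 26.1 and 28.0, with replicate 1 lowest. The part of that library in these gaps was not tested.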

How the results depend on the processing

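Numbers of called members are given here. None of the 79 results picked by size of change reversed direction under any alternative. The same sign in the other unit was a condition of that pick, so the other unit could not show a reversal. Separate replicates were a condition too, except for interactions. Fits that left out 1 sample could therefore hardly show a reversal either. Members named for their role were not part of this check. SDHB with JQ-1, named for its role, fell in FPKM and had an estimate of the opposite sign in the counts. Leaving out 1 sample in turn gave 14 to 20 for enzalutamide in V16D cells (20 with all samples), 0 to 15 for enzalutamide in MR49F cells of full serum (1), 43 to 68 between the lines (52), 0 to 8 for the interaction of line and enzalutamide (1), 37 to 46 for DHT (48), 7 to 16 for enzalutamide in stripped serum (14, lowest without vehicle replicate 2), 20 to 28 for DHT against enzalutamide (32, lowest without DHT replicate 2), 41 to 50 for JQ-1 (48), 39 to 47 for JQ-1 added to DHT (49), 43 to 46 for JQ-1 added to enzalutamide (45), 16 to 28 for the interaction of DHT and JQ-1 (26, lowest without vehicle replicate 2) and 0 to 3 for that of enzalutamide and JQ-1 (2). With edgeR and DESeq2 on the counts of stripped serum the numbers were 10 and 5 for DHT, 1 and 0 for enzalutamide, 2 and 1 for DHT against enzalutamide, 18 and 9 for JQ-1, 30 and 22 for JQ-1 added to DHT, 21 and 10 for JQ-1 added to enzalutamide, 4 and 1 for the DHT interaction, and 0 and 0 for the enzalutamide interaction. The cause was not tested. In full serum, DESeq2 called 13 for enzalutamide in V16D cells; for MR49F cells log2(FPKM + 1) called 0 and dropping the filter 2. Dropping the filter gave 3 for the line interaction and 0 for the enzalutamide interaction with JQ-1. Correlations between the deviations of same-numbered samples ranged from -0.357 to 0.364 and were not of one sign. For JQ-1 added to DHT they were 0.364, -0.0466 and 0.241 in replicates 1, 2 and 3. Whether the numbers pair the samples cannot be settled from these values, and the main fits did not pair them. A fit with the replicate block called 3 for enzalutamide in MR49F cells, 2 for the line interaction, 20 for DHT against enzalutamide and 1 for the enzalutamide interaction with JQ-1, and it lost 0 of 79 named results. Among named results edgeR on counts lost 28 and DESeq2 on counts 35 of the 62 in stripped serum, and 7 of 79 were lost in at least 1 fit without a sample.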
